A study of Homo sapiens with 6 samples.

Results

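RNA levels of the cyclins and cyclin-dependent kinases that act in the G1 phase of the cell cycle, and of their inhibitors, were examined in KO52 cells. The group was defined by a list of 10 gene symbols (CCND1, CCND2, CCND3, CCNE1, CDK2, CDK4, CDK6, CDKN1A, CDKN1B and CDKN2C), and all 10 were found among the 60612 gene IDs of the count files. Of these, 9 passed the filter on low counts and were tested together with the other genes, 15395 genes in all. CDKN2C did not pass. KO52 is an established acute myeloid leukemia (AML) line labelled as a CEBPA double mutant, which all 6 libraries share. The cells had been transduced with a lentiviral, doxycycline-inducible pCW57.1 vector carrying GFP, and GFP-positive cells were sorted. The vector held a dominant negative C/EBP peptide (dnCEBP), a dominant negative FOS peptide (dnFOS) or no insert (empty vector, EV), with 2 libraries for each of the 3. Such a peptide pairs with proteins of its family and keeps the pair off DNA. All values come from 1 cell line, and nothing in the labels says whether the 2 libraries of a group came from separate cultures, so the p-values measure only the spread between these libraries. The length of doxycycline treatment before RNA was taken is not given in the labels used here.

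A cell leaves G1 when D-type cyclins bind CDK4 or CDK6 and the complex phosphorylates the retinoblastoma protein RB, which releases E2F factors. Cyclin E with CDK2 completes that phosphorylation at the start of S phase. Inhibitors of the INK4 family, which includes CDKN2C, block CDK4 and CDK6, while those of the Cip/Kip family, which includes CDKN1A and CDKN1B, bind cyclin complexes, those of CDK2 above all. CDK6 and cyclin D2 are known as the common partners in blood cells, and CDKN1A is a known target of p53.

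CDK6 RNA rose in dnFOS to 1.50 times its EV level, and CDKN1A RNA fell to 0.352 times its EV level. Both also differed in the same directions between dnFOS and dnCEBP. The other 7 tested genes were not called in any comparison. No member was called in dnCEBP against EV, where the CDK6 estimate was 1.21-fold. Over all tested genes, 15.0% were called in dnFOS against EV, 14.7% in dnFOS against dnCEBP and 1.07% in dnCEBP against EV. A gene is called here at an adjusted p under 0.05 by the quasi-likelihood test of edgeR with Benjamini-Hochberg adjustment over all 15395 genes. These are bulk libraries, so fewer cells of a type and less RNA per cell cannot be told apart.

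The total count ran from 9862994 to 14583615 in the dnFOS libraries and from 21681121 to 27663179 in the other 4, so the dnFOS values rest on fewer counts. The floor of detection was taken as 3 counts, which came to between 0.111 and 0.290 CPM (counts scaled to a common library size). Such floors, like intervals from counts, cover counting error only. All 7 markers of myeloid blasts were detected in every library, at a summed 999.7 to 1067 CPM in EV, 922.9 to 928.1 in dnCEBP and 776.2 to 809.4 in dnFOS. Of these markers, ANPEP, MPO and PTPRC were called lower in dnFOS against EV, and ANPEP and MPO in dnCEBP against EV. Their part in the results on G1 genes was not tested. Markers of other cells varied in level. CD3E, CD8A, CDH1, PAX5 and MS4A1 had at most 4 counts in any library. The T cell gene CD3D stood at 90.7 to 147.5 CPM, the T cell gene CD2 at 1.16 to 2.33 CPM and the epithelial gene EPCAM at 27.7 to 37.6 CPM. CD3D was also called lower in dnFOS against EV. The 4 B cell markers summed to at most 1.93 CPM.

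To compare levels between genes, CPM was divided by the length of the merged exons in kilobases. Merged exons pool all annotated transcripts of a gene, from 2550 bases for CCNE1 to 12260 for CDK6. The RNA expressed can be shorter, so the order of genes is approximate. In EV, CDK6 had the highest level of the 10 genes, with 69.3 and 70.9 CPM per kilobase in the 2 libraries. It was followed by CDKN1B at 28.5 ± 1.10, CDK4 at 26.2 ± 1.73 and CCND2 at 23.3 ± 0.229 CPM per kilobase (SD, n = 2). A lower step held CCND3 at 8.33 ± 0.761, CDK2 at 4.79 ± 0.128 and CCNE1 at 2.02 ± 0.167 CPM per kilobase. CDKN1A stood at 0.777 ± 0.0683 CPM per kilobase. CDKN2C at 0.0925 ± 0.00571 and CCND1 at 0.0794 ± 0.0720 CPM per kilobase came last. Of these neighbours in EV, the ranges of CDKN2C and CCND1 overlapped and the others did not. The order in dnCEBP was the same as in EV, again with CDKN2C and CCND1 overlapping. In dnFOS, CCND2 at 25.1 ± 1.63 lay above CDK4 at 23.7 ± 2.74 CPM per kilobase with overlapping ranges. CDKN1A at 0.286 ± 0.133 overlapped with CCND1 at 0.188 ± 0.0393, and CDKN2C was last at 0.0244 ± 0.00673 CPM per kilobase.

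**Figure D1:**
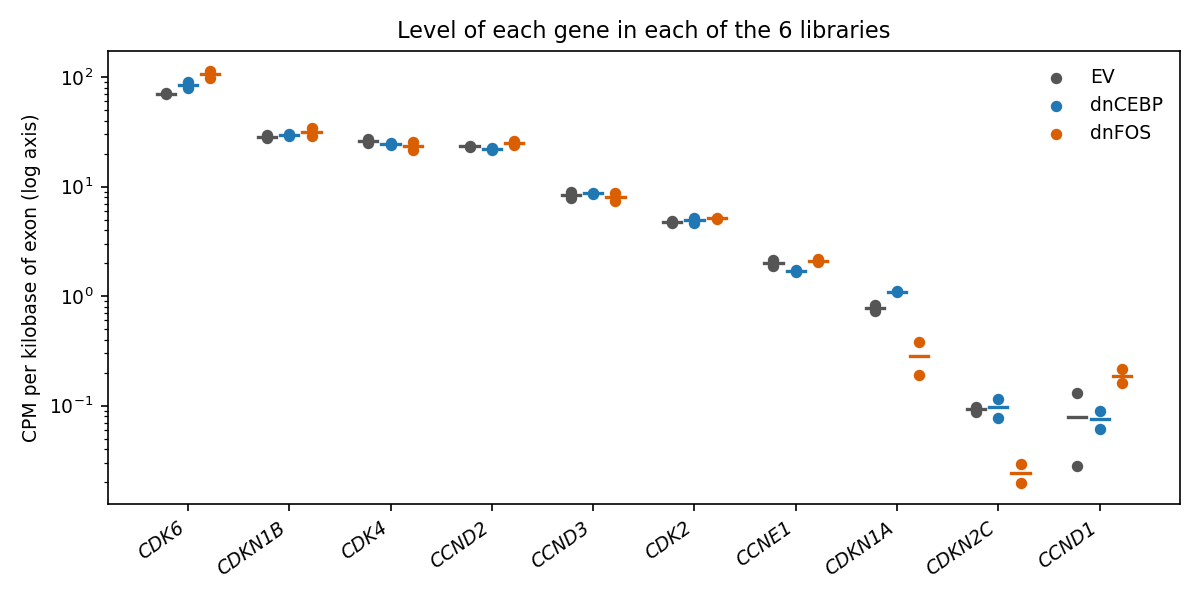
CPM per kilobase of exon on a log axis for each of the 10 genes in EV, dnCEBP and dnFOS, with a point for each library and a bar at the mean of 2 libraries. CDK6 is highest in every group, at a mean of 70.1 in EV and 105.5 in dnFOS, and the dnFOS points of CDKN1A and CDKN2C lie below those of the other groups.

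The D cyclins, the regulatory subunits that bind CDK4 and CDK6, showed no called difference. CCND2 (ENSG00000118971, GRCh38 chromosome 12, 4273772 to 4305350, plus strand) was the most abundant, at 167.8 and 165.5 CPM for EV, 155.5 and 162.5 for dnCEBP and 171.7 and 188.2 for dnFOS. The dnFOS libraries were the highest and the dnCEBP libraries the lowest, with no overlap between groups. The log2 fold change of CCND2 was 0.11 ± 0.08 in dnFOS (SE; adjusted p = 0.425 by edgeR) and -0.07 ± 0.08 in dnCEBP (edgeR adjusted p = 0.821), each against EV. Between dnFOS and dnCEBP it was 0.18 ± 0.08 (SE; adjusted p = 0.168 by edgeR), with a 95% interval from 0.01 to 0.35. Scaling by library totals alone gave 0.30 for this difference and a call (edgeR adjusted p = 0.0105). That setting also moved the median of all genes to 0.14 in this comparison. Of the merged exon bases of CCND2, 13.8% also belong to AC008012.1 on the same strand, so the counts of CCND2 are uncertain to that extent.

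CCND3 (ENSG00000112576, chromosome 6, 41934933 to 42050357, minus strand) stood at 51.5 and 45.2 CPM for EV, 50.2 and 50.9 for dnCEBP and 50.6 and 43.0 for dnFOS. The ranges of the 3 groups overlapped. The fitted difference of CCND3 from EV was 0.06 ± 0.10 (log2) in dnCEBP (SE; adjusted p = 0.876 by edgeR) and -0.04 ± 0.11 in dnFOS (edgeR adjusted p = 0.844). The 95% intervals, from 0.90 to 1.21-fold and from 0.83 to 1.13-fold, give the sizes that these libraries allow. The sign of both values turned under other settings. Without EV replicate 2 the dnCEBP value was -0.033, and the dnFOS value was 0.065 without dnFOS replicate 2 and 0.054 without EV replicate 1.

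CCND1 (ENSG00000110092, chromosome 11, 69641087 to 69654474, plus strand) was close to the floor, at 15 and 3 counts for EV, 8 and 9 for dnCEBP and 16 and 8 for dnFOS. It passed the filter on low counts through its dnFOS libraries, so its higher level there, 0.908 ± 0.190 CPM against 0.383 ± 0.348 in EV (SD, n = 2), is a description. The log2 fold change was 1.23 ± 0.74 in dnFOS (SE; adjusted p = 0.288 by edgeR), with a 95% interval from -0.27 to 2.73. Leaving out EV replicate 1 gave 2.69 and leaving out EV replicate 2 gave 0.53, with no call in either. At this depth a difference was not detectable. In dnCEBP the value was -0.11 ± 0.76 (SE; adjusted p = 0.976 by edgeR), and without EV replicate 1, the library with 15 counts, it was 1.35. CCND1 made up 0.0919% to 0.655% of the summed D cyclin level per kilobase, CCND2 71.4% to 77.6% and CCND3 21.9% to 28.4%, over the 6 libraries. These shares depend on the merged exon lengths, which need not be those of the RNA expressed.

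CDK6 (ENSG00000105810, chromosome 7, 92604921 to 92836594, minus strand), a kinase partner of the D cyclins, stood at 20249 and 18974 counts for EV, 26494 and 22667 for dnCEBP and 18496 and 14289 for dnFOS. Scaled to library size this came to 849.5 and 868.7 CPM for EV, 980.3 and 1094 for dnCEBP and 1204 and 1382 for dnFOS. Both dnFOS libraries lay above both dnCEBP libraries, which lay above both EV libraries. The mean was 859.1 ± 13.5 CPM for EV, 1037 ± 80.5 for dnCEBP and 1293 ± 125.2 for dnFOS (SD, n = 2). In mean CPM, CDK6 ranked 96 of 15395 tested genes in EV and 55 in dnFOS.

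The log2 fold change of CDK6 in dnFOS against EV was 0.59 ± 0.09 (SE; adjusted p = 3.82e-05 by edgeR), with a 95% interval of 1.33 to 1.71-fold. It kept this call under all 16 alternative settings, with log2 fold changes from 0.42 to 0.69. The lowest, 0.42, came with a trend on GC content and length removed. With a library left out the values ran from 0.49 to 0.69. Against dnCEBP, CDK6 was higher in dnFOS by 0.32 ± 0.09 on the log2 scale (SE; adjusted p = 0.0141 by edgeR), with a 95% interval of 1.10 to 1.41-fold. That call did not hold without dnCEBP replicate 1, where the value was 0.24 (adjusted p = 0.163), without dnFOS replicate 2, at 0.22 (adjusted p = 0.206), or with a trend on GC content and length removed, at 0.20 (adjusted p = 0.0726). In dnCEBP against EV, the CDK6 estimate was a log2 difference of 0.27 ± 0.09 (SE; adjusted p = 0.162 by edgeR), with a 95% interval of 1.06 to 1.37-fold. Its unadjusted p was 0.00466, and it was the 1 member of 9 under 0.05 before adjustment in that comparison, as were 11.9% of all tested genes.

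The 300 bases around a start site of CDK6 are shown because the gene carries the called rise among the members and the dnFOS peptide is aimed at factors that read DNA sequence. They were taken from RefSeq (GRCh38.p14, chr7:92836524-92836823, minus strand) and run from 250 bases before to 50 bases after the start. Capitals mark the letters CACGTG, an E-box, which begins at position 31 after the start. RefSeq lists another CDK6 window, which held none of the motifs searched.
CDK6: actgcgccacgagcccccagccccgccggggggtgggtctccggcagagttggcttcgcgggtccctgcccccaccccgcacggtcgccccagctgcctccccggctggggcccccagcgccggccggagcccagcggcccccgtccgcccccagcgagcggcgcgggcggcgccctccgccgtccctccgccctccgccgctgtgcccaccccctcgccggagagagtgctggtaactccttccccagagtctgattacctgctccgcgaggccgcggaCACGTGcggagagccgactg
The motifs searched on both strands in the 12 RefSeq promoter windows of 7 members (CCND3, CCNE1, CDK4, CDK6, CDKN1A, CDKN1B and CDKN2C) were AP-1 (TGANTCA), CRE (TGACGTCA), C/EBP (TTGCNNAA), E2F (TTTNNCGC) and the E-box. Over 35116 RefSeq promoter windows of the same length, 7.71% held the AP-1 letters, 1.85% CRE, 10.5% C/EBP, 6.89% E2F and 7.26% the E-box. Of the 12 member windows, 0 held the AP-1, CRE or E2F letters, 2 held C/EBP, both of CDKN2C, and 4 held the E-box, those of CDK4, CDK6 and CDKN2C. The E-box letters read the same on both strands, and no match in the member windows overlapped another. A match or its lack says only what these windows spell.

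CDK4 (ENSG00000135446, chromosome 12, 57747727 to 57756013, minus strand), the other kinase of the D cyclins, stood at 86.8 and 79.1 CPM for EV, 79.6 and 76.5 for dnCEBP and 81.1 and 68.8 for dnFOS. The ranges overlapped in all 3 comparisons. Against EV, the estimate for CDK4 on the log2 scale was -0.14 ± 0.09 in dnFOS (SE; adjusted p = 0.35 by edgeR) and -0.09 ± 0.09 in dnCEBP (edgeR adjusted p = 0.772). The 95% interval in dnFOS ran from 0.793 to 1.04-fold, which leaves out a rise of the size of CDK6. Of the merged exon bases of CDK4, 43.2% lie over exons of TSPAN31 on the opposite strand. Whether counting used strand is not given in the sources used here, so CDK4 counts are uncertain.

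Since CDK6 and CDK4 bind the same cyclins, their balance was computed per kilobase. CDK6 made up 71.7% and 74.0% of the summed CDK4 and CDK6 level for EV, 76.1% and 78.7% for dnCEBP and 79.3% and 83.8% for dnFOS. The ranges did not overlap between groups, and the share was higher in the 2 dnFOS libraries than in the other 4. No test was made of this share, which rests on the CDK6 difference already given. It also rests on the merged exon lengths, and on the CDK4 counts, which are uncertain for the overlap with TSPAN31.

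**Figure D2:**
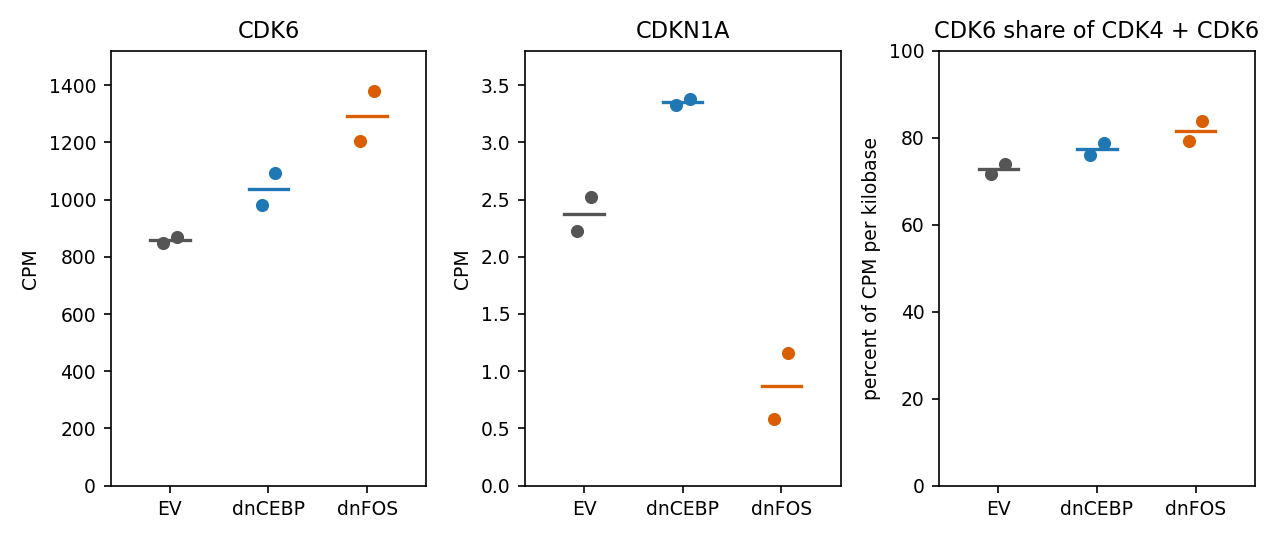
CPM of CDK6 (left) and CDKN1A (middle), and the CDK6 share of the summed CDK4 and CDK6 level per kilobase in percent (right), in EV, dnCEBP and dnFOS. Points are libraries and bars are means of 2. CDK6 rises from 859.1 in EV to 1293 in dnFOS, and the CDKN1A means are 2.37, 3.35 and 0.873.

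CCNE1 and CDK2, cyclin E1 and its kinase, were not called in any comparison. CCNE1 (ENSG00000105173, chromosome 19, 29811898 to 29824308, plus strand) stood at 5.45 and 4.85 CPM for EV, 4.44 and 4.20 for dnCEBP and 5.27 and 5.51 for dnFOS, from 57 to 130 counts. The dnCEBP libraries were the lowest. Against EV, the log2 fold change of CCNE1 was -0.25 ± 0.22 in dnCEBP (SE; adjusted p = 0.71 by edgeR) and 0.06 ± 0.23 in dnFOS (edgeR adjusted p = 0.897), where leaving out EV replicate 2 gave -0.033. The 95% intervals were wide, from 0.614 to 1.15-fold in dnCEBP and from 0.753 to 1.45-fold in dnFOS.

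CDK2 (ENSG00000123374, chromosome 12, 55966769 to 55972784, plus strand) stood at 18.3 and 19.0 CPM for EV, 18.1 and 20.2 for dnCEBP and 20.3 and 19.8 for dnFOS. Both dnFOS libraries lay above both EV libraries by less than 2 CPM. Against EV, CDK2 had log2 fold changes of 0.10 ± 0.14 in dnFOS (SE; adjusted p = 0.674 by edgeR) and 0.03 ± 0.13 in dnCEBP (edgeR adjusted p = 0.954), where leaving out dnCEBP replicate 2 gave -0.046. Of its merged exon bases, 14.5% lie over AC025162.1 and 2.3% over PMEL, both on the opposite strand.

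CDKN1A (ENSG00000124762, chromosome 6, 36676460 to 36687339, plus strand) encodes the Cip/Kip inhibitor known as p21. It stood at 53 and 55 counts for EV, 90 and 70 for dnCEBP and 9 and 12 for dnFOS. Scaled to library size this came to 2.22 and 2.52 CPM for EV, 3.33 and 3.38 for dnCEBP and 0.586 and 1.16 for dnFOS. The dnFOS libraries lay below all others and the dnCEBP libraries above all others. The mean was 2.37 ± 0.208 CPM for EV, 3.35 ± 0.0344 for dnCEBP and 0.873 ± 0.406 for dnFOS (SD, n = 2), so the dnFOS value has the widest relative spread.

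The log2 fold change of CDKN1A in dnFOS against EV was -1.50 ± 0.40 (SE; adjusted p = 0.0104 by edgeR), with a 95% interval of 0.200 to 0.622-fold. Without dnFOS replicate 1, the library with 9 counts, it was -1.03 and not called (edgeR adjusted p = 0.175). The other 15 alternatives kept the call. Against dnCEBP, CDKN1A was lower in dnFOS, at a log2 difference of -2.01 ± 0.39 (SE; adjusted p = 0.000551 by edgeR), a 4.01-fold difference. This call held under all 16 alternatives, with log2 fold changes from -2.51 to -1.53 and adjusted p up to 0.0256. In dnCEBP against EV the log2 fold change was 0.50 ± 0.30 (SE; adjusted p = 0.555 by edgeR), and its 95% interval of 0.919 to 2.18-fold reached from below to above the EV level.

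The promoter window of CDKN1A is shown because CDKN1A is the member called lower in dnFOS. It was taken from RefSeq (GRCh38.p14, chr6:36678464-36678763, plus strand), again from 250 bases before to 50 after a start. It holds no capitals, since none of the motifs searched was found in it.
CDKN1A: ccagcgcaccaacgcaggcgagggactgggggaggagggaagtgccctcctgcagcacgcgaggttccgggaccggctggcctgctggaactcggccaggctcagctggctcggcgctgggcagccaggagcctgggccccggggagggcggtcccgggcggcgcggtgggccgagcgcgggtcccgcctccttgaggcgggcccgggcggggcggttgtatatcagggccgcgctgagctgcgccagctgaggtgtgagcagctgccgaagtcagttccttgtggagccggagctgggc
Its GC content was 74.3%, against 78.0% in the CDK6 window.

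CDKN1B (ENSG00000111276, chromosome 12, 12715058 to 12722371, plus strand), the Cip/Kip inhibitor p27, was far more abundant, at 82.3 and 77.9 CPM for EV, 84.7 and 81.3 for dnCEBP and 81.2 and 96.5 for dnFOS. The groups overlapped. For CDKN1B the fitted log2 fold change was 0.15 ± 0.09 in dnFOS (SE; adjusted p = 0.325 by edgeR) and 0.05 ± 0.09 in dnCEBP (edgeR adjusted p = 0.887). The 95% interval in dnFOS ran from 0.970 to 1.26-fold. CDKN1A made up 2.43% and 2.89% of the summed CDKN1A and CDKN1B level per kilobase for EV, 3.50% and 3.69% for dnCEBP and 0.661% and 1.10% for dnFOS, so CDKN1B RNA was the main part of the pair in every library.

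CDKN2C (ENSG00000123080, chromosome 1, 50960745 to 50974633, plus strand), an INK4 inhibitor of CDK4 and CDK6 known as p18, stood at 7 and 7 counts for EV, 7 and 8 for dnCEBP and 1 and 1 for dnFOS. Both dnFOS libraries were under the floor of 3 counts. The mean CPM was 1.27 times the mean dnFOS floor in EV and 1.33 times that floor in dnCEBP. These ratios leave out the counting error of the 7 or 8 counts in EV and dnCEBP, so they are no lower bound on a difference. With no filter on low counts, CDKN2C was not called in dnFOS against EV (edgeR adjusted p = 0.589 over 27870 genes). Among the member promoters, those of CDKN2C held the C/EBP letters, TTCAGCAA at -110 in the window at 50960495 and TTGCTGAA at -81 in the window at 50969995.

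Of the 9 members tested, 0 were called in dnCEBP against EV, where 1.07% of all tested genes were called, 0.624% higher and 0.448% lower. DESeq2 called 0 of 8, giving no adjusted p for CCND1, and limma-voom called 0 of 9. In dnFOS against EV, 2 of 9 members were called, 1 higher and 1 lower, beside 15.0% of all tested genes, 7.24% higher and 7.76% lower. In dnFOS against dnCEBP, 2 of 9 were called, 1 higher and 1 lower, beside 14.7% of all tested genes, 6.83% higher and 7.84% lower. At 9 genes, a count of 2 lies close to the background of both comparisons with dnFOS, and is no result about the members as a group. Their median log2 fold change was 0.03, 0.10 and 0.09 in these comparisons, against -0.0022, 0.0040 and 0.024 over all tested genes. The 2 comparisons with dnFOS share the dnFOS libraries, and those with EV the EV libraries. The test of dnFOS against dnCEBP is also the test of whether the effects of the 2 peptides differed. Beyond CDK6, CDKN1A and CCND2, its log2 differences ran from -0.11 for CCND3 to 1.34 for CCND1, with edgeR adjusted p from 0.25 to 0.797.

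**Figure D3:**
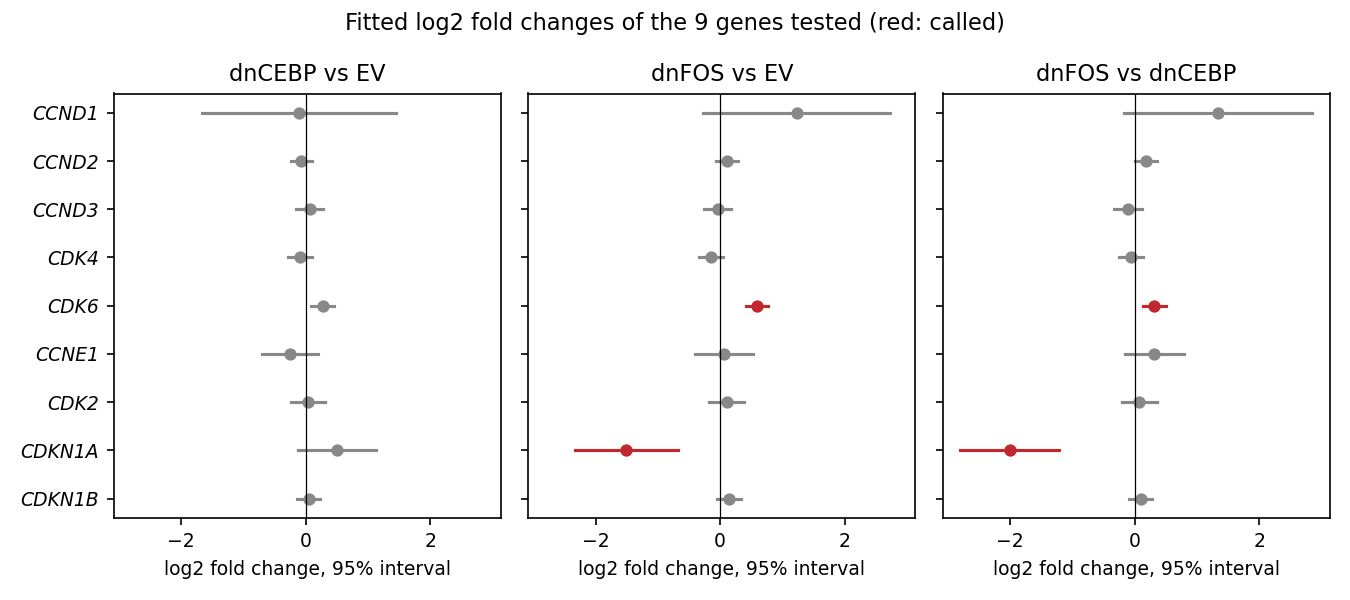
Fitted log2 fold changes of the 9 tested genes with 95% intervals, for dnCEBP against EV, dnFOS against EV and dnFOS against dnCEBP, with called genes in red. CDK6 at 0.59 and CDKN1A at -1.50 are the called genes in dnFOS against EV, none is called in dnCEBP against EV, and the interval of CCND1 is the widest.

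A list of 30 other regulators of the passage from G1 to S phase was counted next, of which 29 were tested. Beside 15.0% of all tested genes, 7.24% higher and 7.76% lower, 9 of 29 were called in dnFOS against EV, 4 higher and 5 lower. The median log2 fold change of the 29 was 0.07. The count fell to 2 without dnFOS replicate 2, to 3 without EV replicate 1 and to 4 without EV replicate 2, and was 5 by DESeq2 and 4 by limma-voom. With scaling by library totals alone 10 were called higher and 1 lower, a setting that moved the median of all genes to 0.10. In dnCEBP against EV, 0 of 29 were called by edgeR, DESeq2 or limma-voom, with 4 under an unadjusted p of 0.05, beside 11.9% of all tested genes. In dnFOS against dnCEBP 6 were called, 4 higher and 2 lower, beside 14.7% of all tested genes, 6.83% higher and 7.84% lower. Fewer of the list were called without dnCEBP replicate 2.

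The RNA of both DP partners that form dimers with E2F factors rose in dnFOS against EV. TFDP1 stood at 89.7 and 89.3 CPM for EV, 81.9 and 84.5 for dnCEBP and 113.8 and 118.9 for dnFOS. Its log2 fold change against EV was 0.38 ± 0.08 (SE; adjusted p = 0.00261 by edgeR), and the call held under all 16 alternatives. TFDP2 stood at 102.4 and 103.3 CPM for EV, 112.3 and 119.5 for dnCEBP and 126.8 and 133.9 for dnFOS. Its log2 fold change in dnFOS against EV was 0.34 ± 0.08 (SE; adjusted p = 0.00609 by edgeR). Between dnFOS and dnCEBP, TFDP1 was called (0.48, edgeR adjusted p = 0.00016) and TFDP2 was not (0.17, adjusted p = 0.194). The TFDP2 call was lost without dnFOS replicate 2 (0.30, adjusted p = 0.0548), EV replicate 1 (0.33, adjusted p = 0.0722) or EV replicate 2 (0.33, adjusted p = 0.0574).

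CDKN2D and CDKN1C, inhibitors of the INK4 and Cip/Kip families, fell in dnFOS against EV. CDKN2D, the INK4 inhibitor known as p19, stood at 5.62 and 6.32 CPM for EV, 6.40 and 6.81 for dnCEBP and 2.93 and 3.38 for dnFOS. Its log2 fold change in dnFOS against EV was -0.93 ± 0.24 (SE; adjusted p = 0.00869 by edgeR). That call was lost without dnFOS replicate 1 (-0.82, adjusted p = 0.0831), without EV replicate 2 (-0.86, adjusted p = 0.0511) and with the trend on GC content and length removed (-0.69, adjusted p = 0.0524). CDKN1C, the Cip/Kip inhibitor p57, stood at 6.21 and 6.13 CPM for EV, 5.85 and 5.65 for dnCEBP and 3.97 and 3.38 for dnFOS. Its log2 fold change was -0.73 ± 0.23 (SE; adjusted p = 0.0318 by edgeR), and leaving out any dnFOS or EV library ended the call, with log2 fold changes from -0.87 to -0.64 and adjusted p from 0.0641 to 0.215. The CDKN1C call was also lost with library totals alone (-0.63, adjusted p = 0.0631), by DESeq2 (adjusted p = 0.0671), by limma-voom (adjusted p = 0.0689) and with the trend on GC content and length removed (-0.46, adjusted p = 0.191). CDKN2A had 5.98 CPM in EV and 5.00 in dnFOS and was not called (log2 fold change -0.27, edgeR adjusted p = 0.475). CDKN2B had 0 counts in all 6 libraries.

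**Figure D4:**
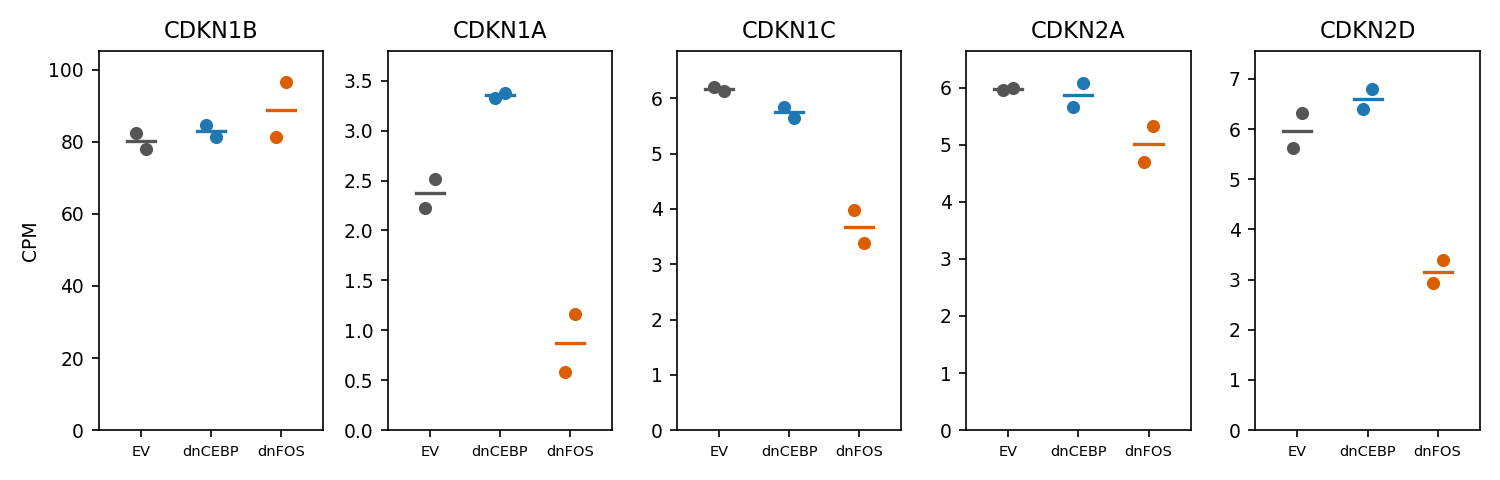
CPM of 5 CDK inhibitor genes, CDKN1B, CDKN1A, CDKN1C, CDKN2A and CDKN2D, in EV, dnCEBP and dnFOS, each panel with its own axis from 0. Points are libraries and bars are means of 2. The dnFOS libraries lie lowest for CDKN1A, CDKN1C, CDKN2A and CDKN2D, at means of 0.873, 3.68, 5.00 and 3.16 CPM, and not for CDKN1B at 88.8.

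GSK3B, a kinase known to mark cyclin D1 for export and breakdown, rose in dnFOS by 0.32 ± 0.10 on the log2 scale (SE; adjusted p = 0.0237 by edgeR). AMBRA1, a ubiquitin ligase adaptor known to degrade D cyclins, changed by -0.41 ± 0.13 (SE; adjusted p = 0.0313 by edgeR). Neither call held without some of the libraries. Leaving out dnFOS replicate 2 gave 0.27 for GSK3B (adjusted p = 0.169) and -0.26 for AMBRA1 (adjusted p = 0.326). Leaving out EV replicate 1 gave 0.24 (adjusted p = 0.306) and -0.34 (adjusted p = 0.232). With the trend on GC content and length removed both calls were lost (adjusted p = 0.084 and 0.0931), and that of AMBRA1 also with library totals alone (adjusted p = 0.115) and by limma-voom (adjusted p = 0.0534).

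Targets of E2F factors, the genes next in the pathway, were counted in the same way. Of 20 tested, 2 were called in dnFOS against EV, 1 higher and 1 lower, beside 15.0% of all genes, 7.24% higher and 7.76% lower. The median log2 fold change of the 20 was 0.01. At 20 genes, a count of 2 lies close to the background, and is no result about the list. PCNA, the DNA polymerase clamp, rose by a log2 value of 0.36 ± 0.10 (SE; adjusted p = 0.0105 by edgeR). ORC1, a subunit of the origin recognition complex, changed by -0.32 ± 0.10 (SE; adjusted p = 0.0366 by edgeR). Both lost their call without dnFOS replicate 2, at 0.24 (adjusted p = 0.209) and -0.21 (adjusted p = 0.322), and without EV replicate 2, at 0.23 (adjusted p = 0.229) and -0.39 (adjusted p = 0.0527), and ORC1 also without EV replicate 1, at -0.26 (adjusted p = 0.293), with library totals alone (adjusted p = 0.15) and by limma-voom (adjusted p = 0.0585). In dnCEBP against EV 0 of 20 were called by edgeR, with 2 under an unadjusted p of 0.05 beside 11.9% of all genes. In dnFOS against dnCEBP 3 were called, all higher, beside 14.7% of all tested genes, 6.83% higher and 7.84% lower.

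CDKN1A being a target of p53, a list of 20 other p53 targets was counted, of which 19 were tested. In dnFOS against EV, 6 were called, 1 higher and 5 lower, beside 15.0% of all genes, 7.24% higher and 7.76% lower. The median log2 fold change of the 19 was -0.11. The gene that rose was ZMAT3, which encodes a zinc finger protein that binds RNA, at 36.2 CPM in EV and 60.2 in dnFOS (log2 fold change 0.73 ± 0.11, SE; adjusted p = 4.74e-05 by edgeR). Those that fell were SESN2, a stress sensor (-0.91 ± 0.20, SE; adjusted p = 0.0025 by edgeR), the death receptor TNFRSF10B (-0.80 ± 0.18, adjusted p = 0.00268), the growth arrest gene GADD45A (-0.68 ± 0.16, adjusted p = 0.00366), the DNA repair gene DDB2 (-0.62 ± 0.15, adjusted p = 0.00392) and the cell death gene BBC3 (-1.44 ± 0.43, adjusted p = 0.0201). MDM2, the ubiquitin ligase of p53 and itself a target, was not called (0.04, edgeR adjusted p = 0.88). ZMAT3 and TNFRSF10B kept their calls under all 16 alternatives. The others lost theirs without 1 library. For dnFOS replicate 2 these were SESN2 (-0.75, adjusted p = 0.0555) and DDB2 (-0.46, adjusted p = 0.0919). For dnFOS replicate 1 they were GADD45A (-0.42, adjusted p = 0.12) and BBC3 (-0.96, adjusted p = 0.237), and BBC3 also lost its call without EV replicate 1 (-1.27, adjusted p = 0.122), by limma-voom (adjusted p = 0.0542) and with the trend on GC content and length removed (-1.08, adjusted p = 0.098). In dnCEBP against EV 0 of 19 were called by edgeR, with 3 under an unadjusted p of 0.05 beside 11.9% of all genes. The 3 were TNFRSF10B (-0.61, edgeR adjusted p = 0.0666), SESN2 (-0.44, adjusted p = 0.313) and CCNG1 (0.25, adjusted p = 0.218). Beside 14.7% of all tested genes, 6.83% higher and 7.84% lower, 5 were called in dnFOS against dnCEBP, 2 higher and 3 lower. Of the genes called lower against EV, DDB2 (-0.63, edgeR adjusted p = 0.00308) and BBC3 (-1.44, adjusted p = 0.0194) were among these. TNFRSF10B (-0.18, adjusted p = 0.576), SESN2 (-0.46, adjusted p = 0.134) and GADD45A (-0.46, adjusted p = 0.0504) were not. Their falls were thus not shown to be particular to dnFOS.

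**Figure D5:**
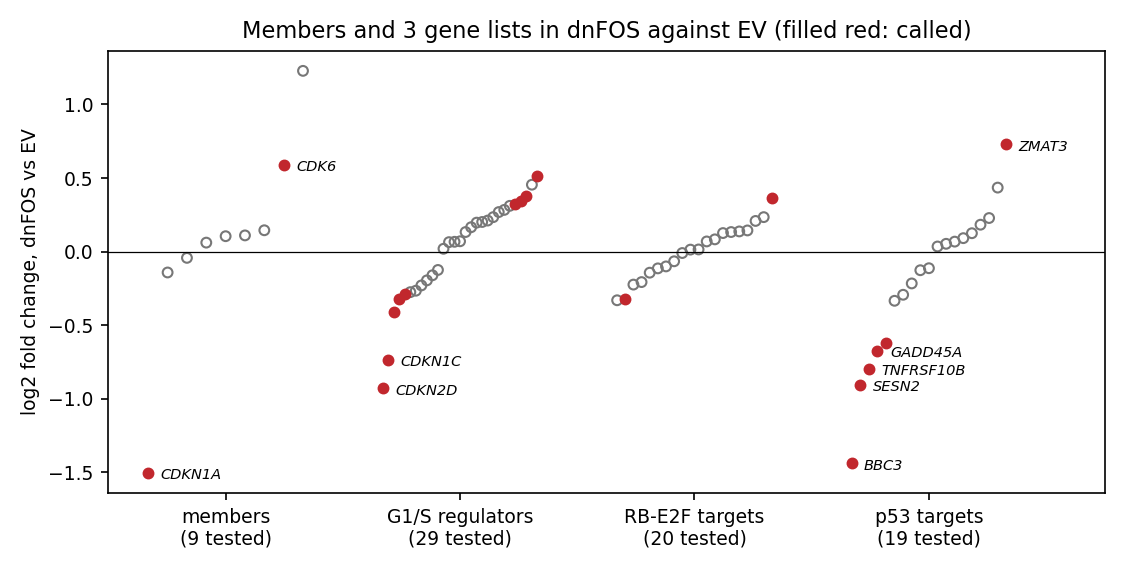
Log2 fold changes in dnFOS against EV for the 9 tested G1 genes and for 3 lists, of 29 G1/S regulators, 20 targets of RB and E2F and 19 targets of p53, with each gene a circle in rank order and called genes filled in red. The called counts are 2, 9, 2 and 6, and CDKN1A at -1.50 is the lowest point.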

How the data were processed

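Total RNA of KO52 cells was sequenced in 6 libraries. The authors deposited raw counts, whole numbers without normalization, in 1 table of 60612 gene IDs for each library. Per the submitters' processing notes, the authors used Trimmomatic, HISAT2 and featureCounts of Subread with the build hg38, while versions, strand setting and annotation are not given in the sources used here. IDs were matched to GENCODE 29 on GRCh38 (58394 of 60612), which gave symbols, coordinates and merged exon lengths.

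Counts were filtered with filterByExpr of edgeR 4.0.16 (minimum count 10), which left 15395 of 27870 genes with a count, and scaled by TMM (factors from 0.956 to 1.05). A robust quasi-likelihood fit in R 4.3.3 with 1 mean per group over all 6 libraries, with 3 residual degrees of freedom, gave two-sided tests of the 3 contrasts, adjusted by Benjamini-Hochberg over all genes tested. CPM and the floor of 3 counts use the scaled library sizes. Depth ran from 9862994 to 27663179 counts, which sets the precision of low genes. Replicates differed by more than sampling noise, the chi-square divided by its degrees of freedom being 7.55 to 14.2.

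The 10 members were given, and all were described. Of each list at most the 6 genes with the lowest adjusted p among those called against EV were named. MDM2, CCNG1, CDKN2A and CDKN2B were named outside that rule after their values were seen. The members and lists were chosen with earlier results of these data known. Alternatives used DESeq2 1.42.0, limma-voom (limma 3.58.1), other filters and scalings, the 2 groups alone, a replicate block, a trend on GC content and length (known for 15222 genes), and each library left out. The fits were tested on simulated data. Promoter windows came from a supplied set of RefSeq windows, which held 7 of the 10 members. That CCND1, CCND2 and CDK2 are missing is a gap in this set.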

Additional observations from a re-analysis of the deposited data

How the results depend on the processing

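Each value was recomputed under 16 alternatives where it could be fitted. Of 428 values of the members, 405 kept their direction and side of the threshold, 17 changed sign, 4 lost a call and 2 gained one. DESeq2 gave no adjusted p for CCND1, so only its direction was compared. Of 224 values of the named list genes in dnFOS against EV, 188 stayed and 36 lost a call. Beside fits without a library, these losses came with library totals alone (AMBRA1, CDKN1C, ORC1), DESeq2 (CDKN1C), limma-voom (AMBRA1, BBC3, CDKN1C, ORC1) and removal of a trend on GC and length (AMBRA1, BBC3, CDKN1C, CDKN2D, GSK3B). A fit without 1 library assumes that the lone library of a group varies like the other groups. The cause of these changes was not tested. The sign changes all belong to members with no call, and in dnCEBP against EV CCND1 had log2 fold changes of 0.17 by limma-voom, 0.16 without dnCEBP replicate 1 and 1.35 without EV replicate 1 (-0.80 to 1.35 with a library left out), CDK2 had -0.046 without dnCEBP replicate 2 (-0.046 to 0.11) and CCND3 -0.033 without EV replicate 2. In dnFOS against EV, CCND3 had 0.057 with library totals alone, 0.087 after removal of a trend on GC and length, 0.065 without dnFOS replicate 2 and 0.054 without EV replicate 1 (-0.17 to 0.065 with a library left out), and CCNE1 had -0.033 without EV replicate 2 (-0.033 to 0.15). In dnFOS against dnCEBP, CCND3 had 0.016 with library totals and 0.0015 without dnFOS replicate 2 (-0.23 to 0.0015 with a library left out), CDK4 had 0.068 with library totals, 0.0058 with the trend removed and 0.056 without dnFOS replicate 2 (-0.18 to 0.056), CDK2 had -0.0091 without dnCEBP replicate 1 (-0.0091 to 0.15) and CDKN1B -0.032 without dnFOS replicate 2 (-0.032 to 0.22).

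Counts of called members over the fits that leave out a library ran from 1 to 2 in dnFOS against EV, with 1 without dnFOS replicate 1, and from 1 to 2 in dnFOS against dnCEBP, with 1 without dnCEBP replicate 1 or dnFOS replicate 2. After removal of the GC and length trend, 1 was called in the latter. All genes called numbered 165 in dnCEBP against EV, against 255 with no low-count filter, 257 with only the 2 groups compared, 262 with the trend removed and 33 to 314 with a library left out. In dnFOS against EV they numbered 972 to 2426 and in dnFOS against dnCEBP 1182 to 2262 with a library left out. G1/S regulators called in dnFOS against EV numbered 5 by DESeq2, 4 by limma-voom and 2 to 9 with a library left out, and in dnFOS against dnCEBP 12 with library totals and 3 to 6 with a library left out. Library totals alone moved the median of all genes to 0.10 in dnFOS against EV and 0.14 in dnFOS against dnCEBP, and the calls over all genes to 1905 higher and 676 lower and to 2101 higher and 714 lower, from 1115 and 1194 and from 1052 and 1207.

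With the replicate number as a block, dnCEBP against EV had 488 genes, 1 member (CDK6, log2 fold change 0.27, edgeR adjusted p = 0.0446) and 2 G1/S regulators called. The labels do not say that a number marks a shared culture, and the differences between replicates correlated across genes by only 0.0174 to 0.0879 between groups, so the numbers were not taken as pairs. The low counts of CCND1, CDKN1A and CDKN2C limit what these libraries can show of them.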
